A study of Rattus norvegicus with 4 samples.

Results

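Autophagy genes that have been linked to FOXO transcription factors were read in cultured rat granulosa cells, which surround the oocyte in the ovarian follicle and make steroid hormones. The list held 9 genes: Map1lc3a, Map1lc3b, Gabarap, Gabarapl1, Sqstm1, Becn1, Atg5, Atg12 and Atg7. Members were the probe sets annotated with exactly 1 of these symbols and no other. That gave 19 probe sets of 8 genes, out of 31042 probe sets and 14217 genes on the array. Map1lc3b was listed on 1 probe set together with another symbol, so it was not read.

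The cells were primary cultures from female Sprague-Dawley rats of 23 to 25 days that had been treated with estradiol. All 4 groups had been infected with an adenovirus for 4 h and then kept for 24 h with or without follicle-stimulating hormone (FSH) at 100 ng/ml, per the labels. The groups were GFP vehicle (a green fluorescent protein vector, no FSH), GFP FSH, FOXOA3 FSH (constitutively active FOXO1) and FOXOA3-mDBD FSH (its DNA-binding mutant). There was 1 array per group, so no difference below has a replicate check or a p-value, and the number of arrays limits the precision. The sources used here do not give the amount of virus or the number of cultures behind each array.

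Autophagy encloses cytoplasm in a double membrane that fuses with lysosomes. Becn1 belongs to the lipid kinase complex that starts the membrane. Atg7 activates the ubiquitin-like proteins Atg12 and Atg8, Atg12 is joined to Atg5, and this conjugate helps attach the Atg8 family (Map1lc3a, Map1lc3b, Gabarap, Gabarapl1) to the membrane, where receptors such as Sqstm1 bring cargo. FOXO factors are known to activate several of these genes in muscle and other tissues. In the ovary, autophagy has been studied in granulosa cells mainly for its part in follicle loss.

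Which members were 2-fold apart varied with the comparison. Map1lc3a was 2.21-fold lower with FSH than with vehicle and 2.44-fold higher with FOXOA3 than with GFP under FSH. Atg12 was 2.08-fold higher with FOXOA3-mDBD than with GFP under FSH, and Atg5 was higher there too, by 1.66-fold on its brightest probe set. Gabarap was 2.26-fold higher on FOXOA3 FSH than on FOXOA3-mDBD FSH. Gabarapl1 was highest on FOXOA3 FSH, by 1.92-fold over GFP FSH. Becn1 stayed within a 1.16-fold range over the 4 arrays.

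Values are MAS5 signals, a brightness per probe set on a linear scale. A floor of 100.5, the median signal of all probe sets, was set as the level under which ratios were not read. Of the 19 member probe sets, 13 were above the floor on all 4 arrays, 4 on some and 2 on none. The brightest probe set of each of the 8 genes was above it on all 4. As a measure of technical error, the 2 brightest probe sets of 1703 genes were compared, both above the floor on every array. Their log2 ratios differed by a median of 0.34 for GFP FSH against GFP vehicle, 0.42 for FOXOA3 FSH against GFP FSH, 0.47 for FOXOA3-mDBD FSH against GFP FSH, 0.43 for FOXOA3 FSH against FOXOA3-mDBD FSH and 0.28 for FOXOA3 FSH against GFP vehicle. Of genes 2-fold apart by the brightest probe set, the second showed a 2-fold difference the same way for 62.0%, 49.8%, 60.2%, 56.5% and 49.1% in that order. This measures the probe sets and not the spread between cultures. Probe sequences were not used here, so signal shared between related Atg8 genes was not tested.

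**Figure D1:**
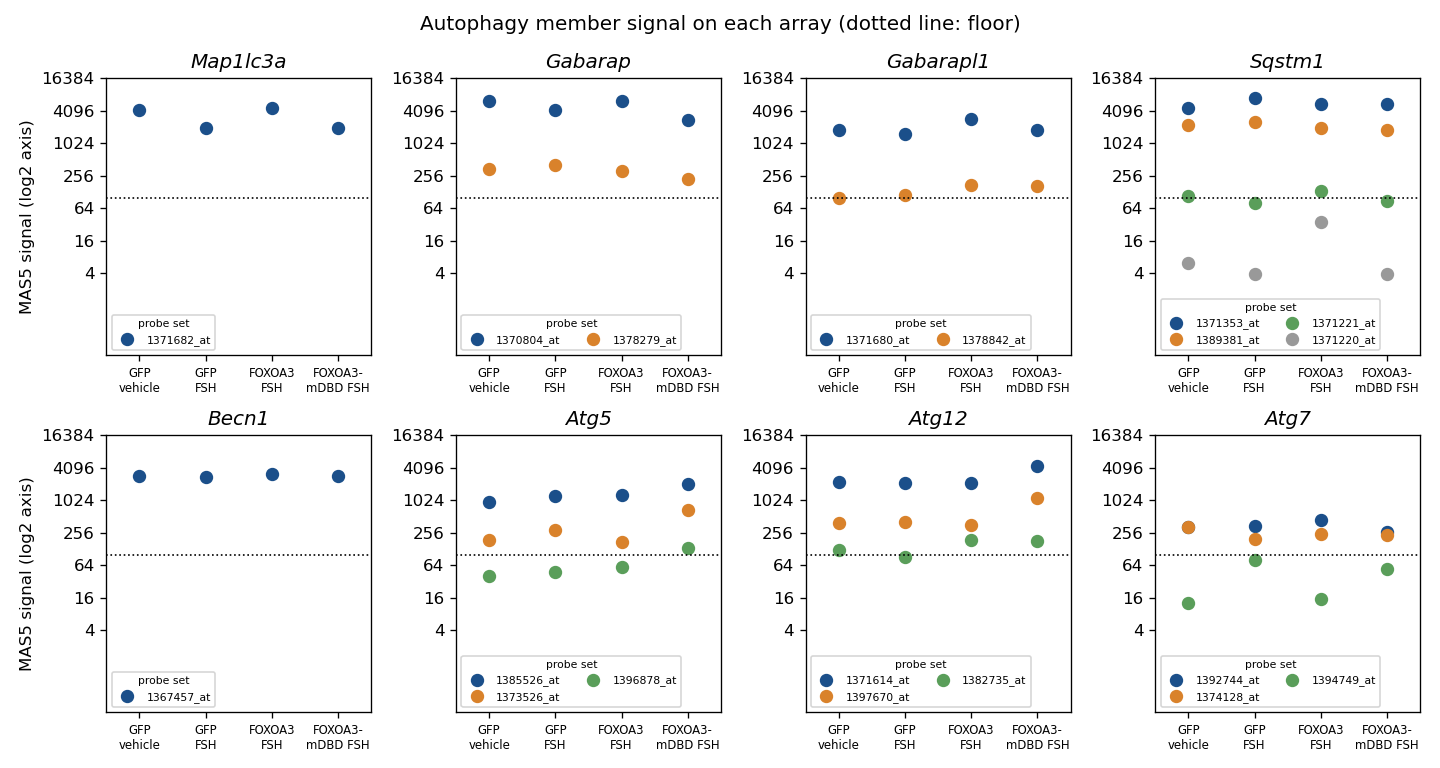
MAS5 signal (log2 axis) of every member probe set on the 4 arrays, 1 point per array, with the floor of 100.5 as a dotted line. Map1lc3a is lower on GFP FSH and FOXOA3-mDBD FSH, and the 2 brighter probe sets of Atg5 and of Atg12 are highest on FOXOA3-mDBD FSH.

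The arrays differed in their technical controls and in the signal of some genes used as cell type markers. The poly-A spikes, bacterial RNAs added before labelling, had geometric mean signals of 21.4 for GFP vehicle and 22.6 for FOXOA3 FSH but 394.6 for GFP FSH and 539.4 for FOXOA3-mDBD FSH. Arrays of like spike level are therefore compared when FOXOA3 FSH is set against GFP vehicle and when the mutant is set against GFP FSH, but not in the other 3 comparisons. The 3' to 5' signal ratio of beta-actin was 5.15 for GFP vehicle and 9.79 to 12.0 on the other arrays. Granulosa markers were above the floor for 8 or 9 of the 9 on the array, with Cyp19a1 (aromatase) under it on GFP vehicle and Amh under it on FOXOA3-mDBD FSH. Of 8 theca and stroma markers, 3 to 5 were above the floor. The defining theca genes Cyp17a1 and Insl3 were under it on all 4 arrays. Of 6 leukocyte markers, 1 to 3 were above the floor, with Lyz2 above and Ptprc, Cd68 and Itgam under it on all 4. Of 4 endothelial markers, 1 or 2 were above the floor, with Kdr above and Pecam1 and Vwf under it on all 4. Of 4 oocyte markers, 2 or 3 were above it on each array, with Bmp15 under it on all 4. In bulk RNA, fewer cells of a type and less RNA per cell cannot be told apart, and which cells gave a marker's signal was not tested.

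Map1lc3a encodes LC3A, an Atg8 protein that is attached to the autophagosome membrane, and had 1 probe set. Its signal was 4276 for GFP vehicle, 1936.9 for GFP FSH, 4722.8 for FOXOA3 FSH and 1939.5 for FOXOA3-mDBD FSH. GFP vehicle and FOXOA3 FSH were high and the remaining arrays low, with nearly equal values within each pair. FOXOA3 FSH was 1.10-fold above GFP vehicle, and FOXOA3-mDBD FSH and GFP FSH had a ratio of 1.00. The 2-fold differences between the pairs, GFP FSH against GFP vehicle and FOXOA3 FSH against either other FSH array, held under all 7 alternatives. Among these, the lower floor, the filter on both signals and the mean of probe sets could not change them. Its 1 probe set was above the floor on all 4 arrays. The log2 ratio lay between -1.26 and -1.05 for FSH against vehicle and between 1.19 and 1.42 for FOXOA3 FSH against GFP FSH. The signal was high on the 2 arrays with low spike signals and low on the 2 with high ones. It ran the same way as the summed signal of the 8 theca and stroma markers, which was 16456 for GFP vehicle, 2149 for GFP FSH, 24187 for FOXOA3 FSH and 1407 for FOXOA3-mDBD FSH. The largest contributor was Tagln on GFP vehicle (9167.1) and Dcn on FOXOA3 FSH (12504.1). Col3a1, Dcn, Acta2 and Tagln each ran that way, though unevenly. Dcn gave only 624.1 for GFP vehicle, beside 485.2 for GFP FSH. Acta2 gave 3710.6 for GFP vehicle and 593.7 for FOXOA3 FSH. Lum did not run that way, with 241.5, 215.8, 98.8 and 97.8 in the order of the sums, and Cyp17a1, Insl3 and Col1a1 were under the floor. The part of the spike level and of these markers in the result was not tested.

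Gabarap, a second Atg8 protein that acts late in autophagosome formation, had a bright and a dimmer probe set. The bright one gave 6270.9 for GFP vehicle, 4213.7 for GFP FSH, 6356.0 for FOXOA3 FSH and 2811.4 for FOXOA3-mDBD FSH. It was high on the same arrays as Map1lc3a and lowest on FOXOA3-mDBD FSH. The dimmer one gave 343.1, 410.9, 314.5 and 224.2 in that order, so both were lowest on FOXOA3-mDBD FSH and they disagreed on the direction of FSH and of FOXOA3 against GFP FSH. FOXOA3 FSH was 2.26-fold above FOXOA3-mDBD FSH by the bright probe set and 1.40-fold by the dimmer one. That 2-fold difference was lost when arrays were centred on their median, at a log2 ratio of 0.95, and with the mean of both probe sets, at 0.83. FOXOA3-mDBD FSH was 1.50-fold and 1.83-fold below GFP FSH by the bright and the dimmer probe set, which is a comparison at like spike level.

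Gabarapl1, an Atg8 gene described as a FOXO target in muscle, was highest on FOXOA3 FSH by both of its probe sets. The bright one gave 1823.4 for GFP vehicle, 1519.3 for GFP FSH, 2910.7 for FOXOA3 FSH and 1775.4 for FOXOA3-mDBD FSH. The dimmer one gave 99.8, 111.8, 176.1 and 164.2, of which the first is under the floor. FOXOA3 FSH was 1.07-fold above FOXOA3-mDBD FSH by the dimmer probe set and 1.64-fold by the bright one. At like spike level, the bright probe set was 1.60-fold higher on FOXOA3 FSH than on GFP vehicle, where Map1lc3a and Gabarap had ratios of 1.10 and 1.01. No ratio of Gabarapl1 reached 2-fold except under loess, where FOXOA3 FSH against GFP FSH had a log2 ratio of 1.00.

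The promoters of Gabarapl1 and Gabarap are shown. Both genes were higher on FOXOA3 FSH than on FOXOA3-mDBD FSH by both of their probe sets. This was not particular to them, since Sqstm1 and Atg7, not shown, were also higher there by every measured probe set. The sequences are the 250 bases before the start site in RefSeq, build GRCr8, plus strand. They lie at chr4:164666082-164666331 for Gabarapl1 and chr10:55213215-55213464 for Gabarap, and capitals mark any of the letters searched.
Gabarapl1: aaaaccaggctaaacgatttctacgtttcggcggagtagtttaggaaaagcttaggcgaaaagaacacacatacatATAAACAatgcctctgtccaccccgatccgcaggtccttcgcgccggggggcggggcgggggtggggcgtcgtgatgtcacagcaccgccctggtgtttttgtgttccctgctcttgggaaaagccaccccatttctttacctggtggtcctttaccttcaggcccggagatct
Gabarap: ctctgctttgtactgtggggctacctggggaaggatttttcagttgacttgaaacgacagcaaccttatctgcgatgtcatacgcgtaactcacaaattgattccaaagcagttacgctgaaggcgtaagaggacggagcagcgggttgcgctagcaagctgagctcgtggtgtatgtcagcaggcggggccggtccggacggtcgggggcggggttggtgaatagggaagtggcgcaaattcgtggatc

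Promoter windows of 300 bases were found for 6 of the 8 members. On either strand, the FOXO consensus GTAAACA was in 0 of the 6 and in 3.78% of 33469 windows in the table. The shorter forms GTAAAC, which overlaps the consensus, and GTAAAT were both in the Atg7 window and no other member's, beside 8.11% and 10.0% of all windows. The Atg7 window lies inside the span that RefSeq gives the gene and not at its edge. ATAAACA, searched after the Gabarapl1 letters had been read, was in that window, 174 bases before the start site, and in 4.54% of all windows. A match describes the letters, and no match says only that they are not in this window.

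Sqstm1 encodes a receptor that binds ubiquitin and Atg8 proteins and is itself degraded by autophagy. Its brightest probe set gave 4667.3 for GFP vehicle, 7124.6 for GFP FSH, 5520.2 for FOXOA3 FSH and 5435.4 for FOXOA3-mDBD FSH. The next gave 2215.7, 2556.7, 1955.3 and 1774.3. Both were highest on GFP FSH, by 1.53-fold and 1.15-fold over GFP vehicle, and both were lower on the FOXO1 arrays than on GFP FSH, by 1.29-fold and 1.31-fold with FOXOA3 and by 1.31-fold and 1.44-fold with FOXOA3-mDBD. None of these ratios reached 2-fold. The remaining 2 probe sets were at or under the floor on at least 2 arrays.

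Becn1, the regulatory subunit of the lipid kinase complex, had the narrowest range of the 8 genes by brightest probe set. Its single probe set gave 2876.6 for GFP vehicle, 2769.6 for GFP FSH, 3219.9 for FOXOA3 FSH and 2925.5 for FOXOA3-mDBD FSH. Its log2 ratios over the 5 comparisons and 7 alternatives lay between -0.17 and 0.35.

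Atg12, the ubiquitin-like protein joined to Atg5, was high on 1 array. Its brightest probe set gave 2260.0 for GFP vehicle, 2104.8 for GFP FSH, 2140.3 for FOXOA3 FSH and 4374.7 for FOXOA3-mDBD FSH. The second gave 395.4, 402.3, 353.3 and 1113.7. Both stood at about one level on the first 3 arrays and higher on FOXOA3-mDBD FSH, by 2.08-fold and 2.77-fold over GFP FSH at like spike level. The third, dimmest probe set went another way, with 123.3, 92.7, 191.1 and 177.4, and gave FOXOA3 FSH and FOXOA3-mDBD FSH within 1.08-fold of each other. FOXOA3 FSH was 2.04-fold below FOXOA3-mDBD FSH by the brightest probe set, which fell short of 2-fold under quantile normalization (log2 ratio -0.93), loess (-0.93) and the mean of probe sets (-0.86).

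Atg5, the partner of Atg12, had the same array as its highest. Its brightest probe set gave 956.9 for GFP vehicle, 1222.3 for GFP FSH, 1270.2 for FOXOA3 FSH and 2026.7 for FOXOA3-mDBD FSH. The second gave 184.9, 293.4, 172.7 and 686.3, and the third was above the floor on FOXOA3-mDBD FSH alone, at 132.2. FOXOA3-mDBD FSH was 1.66-fold above GFP FSH by the brightest probe set and 2.34-fold by the second. Against GFP vehicle, a comparison added after these values were seen, the brightest probe sets of Atg5 and Atg12 were 2.12-fold and 1.94-fold higher on FOXOA3-mDBD FSH, and those of Map1lc3a and Gabarap 2.20-fold and 2.23-fold lower. In that comparison 13% of all measured genes were 2-fold higher and 22.5% lower.

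Atg7, the activating enzyme of both conjugation reactions, was dim. Its brightest probe set gave 334.8 for GFP vehicle, 344.6 for GFP FSH, 439.4 for FOXOA3 FSH and 261.0 for FOXOA3-mDBD FSH. The second gave 327.0, 198.6, 242.6 and 230.0, so that the probe sets named different arrays as highest and lowest, and no ratio of either reached 2-fold. The third was under the floor on all 4 arrays.

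**Figure D2:**
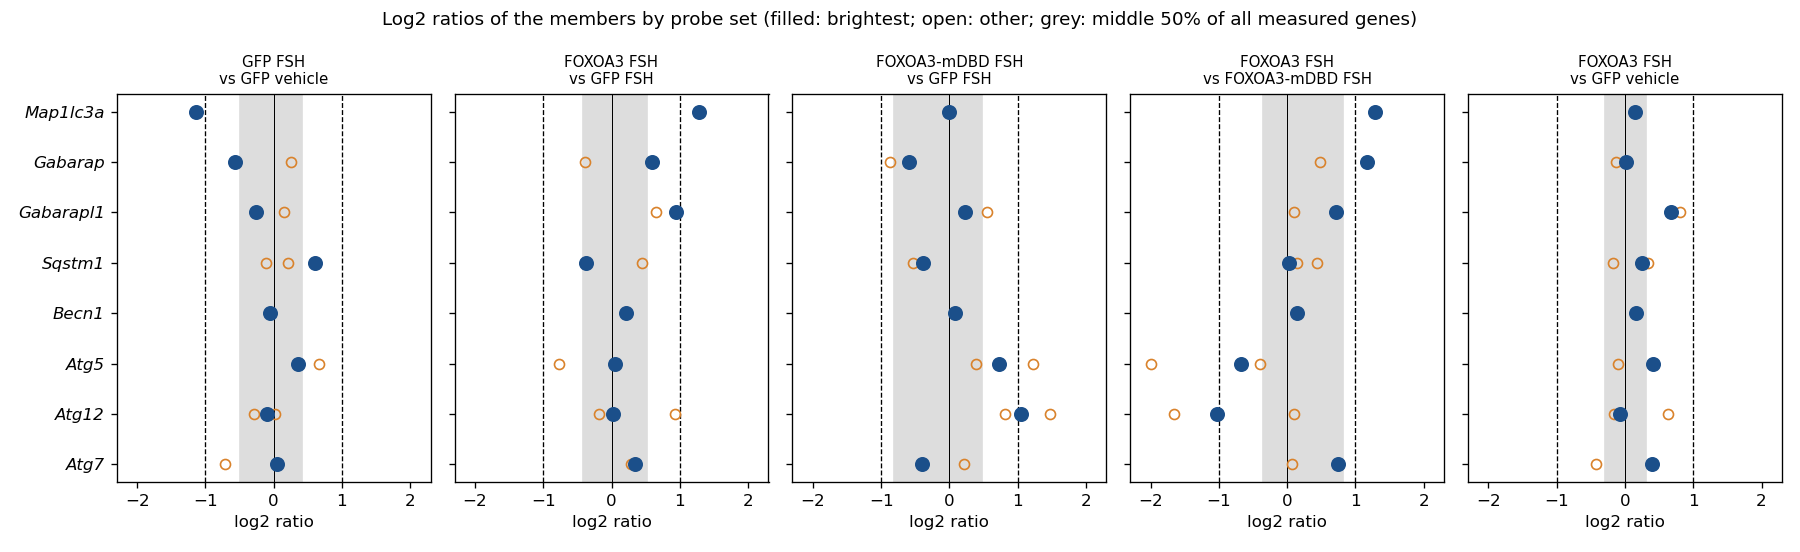
Log2 ratio of each member (rows) in 5 comparisons (panels), for the brightest probe set (filled) and the other measured probe sets (open), with dashed lines at 2-fold and the middle 50% of all measured genes in grey. By brightest probe set, Map1lc3a lies past 2-fold in 3 panels, Atg12 in 2 and Gabarap in 1. Another probe set of Atg5 is past it in 2, and each of the 6 genes with several probe sets has them on both sides of 0 in some panel.

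Counted by brightest probe set, 1 of 8 members was 2-fold lower with FSH than with vehicle (Map1lc3a) and 0 were higher, beside 11.1% and 6.84% of all 9578 measured genes. The members' median log2 ratio was -0.08, with 3 of 8 above 0, and that of all genes 0.00. With FOXOA3 against GFP under FSH, 1 of 8 was higher (Map1lc3a) and 0 lower, beside 11.1% and 6.99% of 9941 genes. The medians were 0.28 for the members and 0.04 for all genes. Here 7 of 8 members had a ratio above 0, Sqstm1 being the exception, though Atg12 and Atg5 turned below 0 in at least 1 alternative. By the second probe set, Gabarap (-0.39), Sqstm1 (-0.39), Atg5 (-0.76) and Atg12 (-0.19) were below 0, and Gabarapl1 (0.66) and Atg7 (0.29) above it. With FOXOA3-mDBD against GFP under FSH, 1 of 8 was higher (Atg12) and 0 lower, beside 12.5% and 19.1% of 9748 genes. The medians were 0.04 and -0.16, and 5 of 8 members had a ratio above 0. A count of 1 in 8 is close to these background shares, so it sets no member count apart from the array. These comparisons share the GFP FSH array, so that a value high or low on it enters all 3.

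Between FOXOA3 FSH and FOXOA3-mDBD FSH, 2 of 8 members were higher with FOXOA3 (Map1lc3a and Gabarap) and 1 was lower (Atg12), beside 19% and 9.24% of 10092 genes. The medians were 0.43 for the members and 0.21 for all genes, and 6 of 8 members had a ratio above 0. The median of all genes was 0.12 after quantile normalization, and 0.01 after centring and 0.02 after loess, which bring it near 0 by construction. The higher genes made up 67.2% of those 2-fold apart as deposited, 59.1% after quantile normalization, 49.3% after centring and 44.2% after loess. For FOXOA3-mDBD FSH against GFP FSH, that share was 39.6% as deposited and 54.3% after loess. Between FOXOA3 FSH and GFP vehicle, arrays of like spike level, 0 of 8 members were 2-fold apart, beside 5.32% of 9904 genes higher and 4.01% lower. In this comparison 7 of 8 members had a ratio above 0 by brightest probe set, with a median of 0.20 beside 0.01 for all genes. By the second probe set, Gabarap (-0.13), Sqstm1 (-0.18), Atg5 (-0.10), Atg12 (-0.16) and Atg7 (-0.43) were below 0 and Gabarapl1 was above it. The largest ratio by brightest probe set was the 1.60-fold of Gabarapl1, whose other probe set was at least 1.75-fold higher.

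**Figure D3:**
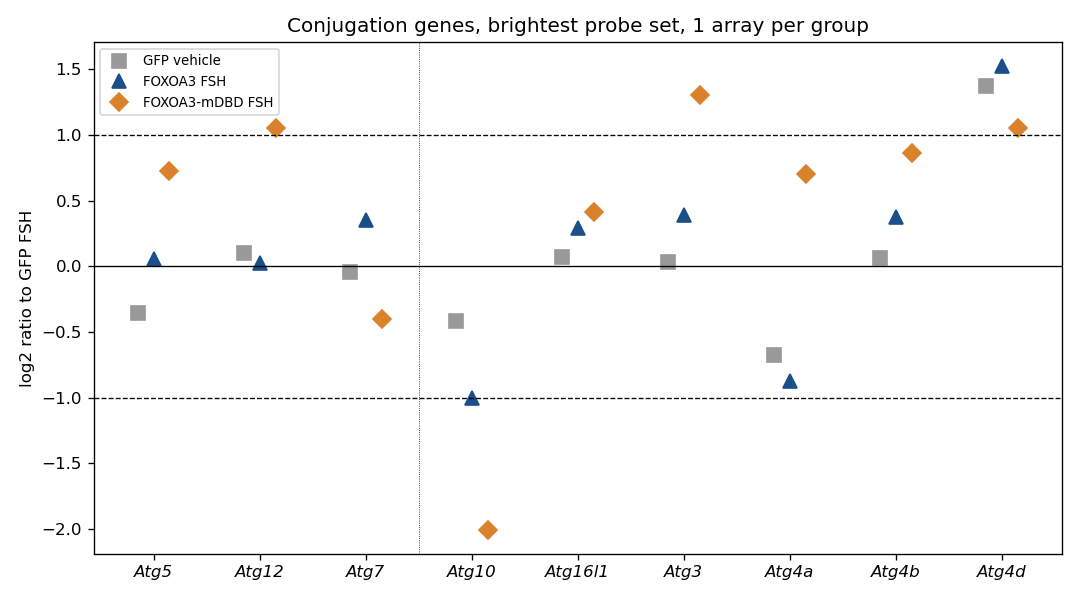
Log2 ratio to GFP FSH of the conjugation genes (brightest probe set, signals floored) on the other 3 arrays, with Atg5, Atg12 and Atg7 left of the dotted line and the 6 other genes of this list right of it; dashed lines mark 2-fold. On FOXOA3-mDBD FSH, Atg12, Atg3 and Atg4d are past 2-fold upward and Atg10 downward. The Atg4d ratio is a lower bound, since its GFP FSH signal of 93.1 was under the floor. Atg4d was named here after its values were seen. Atg10 was close to the floor on FOXOA3-mDBD FSH, at 102.3.

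The rest of the pathway was read from 7 lists of 64 genes, of which 58 were on the array and 57 measured in each comparison. Each of these genes was read by its brightest probe set alone, and its other probe sets were not compared. With FSH against vehicle, 1 of 57 was 2-fold higher and 8 lower (1.75% and 14.0%, beside 6.84% and 11.1% of all measured genes). With FOXOA3 against GFP under FSH, 9 were higher and 4 lower (15.8% and 7.02%, beside 11.1% and 6.99%). With FOXOA3-mDBD against GFP, 7 were higher and 9 lower (12.3% and 15.8%, beside 12.5% and 19.1%). Between FOXOA3 FSH and FOXOA3-mDBD FSH, 10 were higher and 4 lower (17.5% and 7.02%, beside 19% and 9.24%). Between FOXOA3 FSH and GFP vehicle, 0 were higher and 1 lower, beside 5.32% and 4.01%. Most of these shares lie near those of all genes. The medians of the 57 were -0.13, 0.16, 0.19, 0.44 and -0.01 in that order, and those of all genes 0.00, 0.04, -0.16, 0.21 and 0.01.

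Of the other conjugation genes, Atg3 was highest and Atg10 lowest on the array where Atg12 and Atg5 were high. Atg3, the enzyme that transfers Atg8 proteins to lipid, gave 1860.3 for GFP vehicle, 1813.3 for GFP FSH, 2377.3 for FOXOA3 FSH and 4474.3 for FOXOA3-mDBD FSH, 2.47-fold above GFP FSH on the last. Atg10, the enzyme that transfers Atg12 to Atg5, gave 308.3, 411.9, 205.1 and 102.3, the last close to the floor, and was 4.03-fold lower there. The list of 6 measured genes had 2 higher and 1 lower with FOXOA3-mDBD against GFP FSH, beside 12.5% and 19.1% of all genes, and a median log2 ratio of 0.78 beside -0.16. With FOXOA3 against GFP FSH it had 1 higher and 1 lower, beside 11.1% and 6.99%, and a median of 0.34 beside 0.04.

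The initiation genes, which form the Ulk1 kinase and Becn1 lipid kinase complexes, had 3 of 10 lower with FSH and 0 higher, beside 11.1% and 6.84% of all genes, with a median of -0.64 beside 0.00. With FOXOA3 against GFP FSH 3 were higher and 0 lower, beside 11.1% and 6.99%, with a median of 0.67 beside 0.04. With FOXOA3-mDBD 4 were higher and 0 lower, beside 12.5% and 19.1%, with a median of 0.68 beside -0.16. Ambra1, which binds Becn1, gave 475.5 for GFP vehicle, 154.3 for GFP FSH, 647.9 for FOXOA3 FSH and 334.1 for FOXOA3-mDBD FSH. Atg13, a subunit of the Ulk1 complex, gave 1737.8, 682.8, 2549.7 and 1230.0. Both were lowest on GFP FSH, the array that these 3 comparisons share. Between FOXOA3 FSH and GFP vehicle, without that array, 0 of 10 initiation genes were higher and 1 lower, beside 5.32% and 4.01%. The median there was 0.28 beside 0.01. Atg101, another subunit of the Ulk1 complex, gave 1157.8, 1106.6, 1448.6 and 9239.2 in the order used for Ambra1. It was 8.35-fold above GFP FSH on FOXOA3-mDBD FSH. Rb1cc1, the scaffold of that complex, was 3.44-fold higher there. Ulk1 itself was 2.47-fold higher on FOXOA3 FSH than on FOXOA3-mDBD FSH.

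Lysosome and TFEB genes had 1 of 13 higher and 4 lower with FOXOA3-mDBD against GFP FSH, beside 12.5% and 19.1% of all genes, with a median of -0.63 beside -0.16. Neu1, a lysosomal sialidase, was at least 5.29-fold lower, since it was under the floor on FOXOA3-mDBD FSH, and the protease Ctsd 3.73-fold lower. With FOXOA3 against GFP FSH 2 of the 13 were higher and 1 lower, beside 11.1% and 6.99%, and the median was 0.05 beside 0.04. Tfeb, the main transcription factor of lysosomal genes, was 2.81-fold lower with FSH than with vehicle. The protease Ctsb was 2.36-fold higher with FSH.

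Cargo and mitophagy receptors had 1 of 8 higher and 1 lower with FOXOA3 against GFP FSH, beside 11.1% and 6.99% of all genes. Pink1, the kinase that marks damaged mitochondria, gave 793.9 for GFP vehicle, 223.1 for GFP FSH, 630.2 for FOXOA3 FSH and 273.4 for FOXOA3-mDBD FSH. It was high on the same 2 arrays as Map1lc3a, which have the low spike signals and the high theca and stroma sums, whose part was not tested. Of the membrane supply genes 1 of 8 was 2-fold higher and 0 lower with FOXOA3 against GFP FSH, beside 11.1% and 6.99%. This was Atg2a, a lipid transfer protein, at 2.45-fold. None of the 8 was apart with FSH, beside 6.84% of all genes higher and 11.1% lower, or with FOXOA3-mDBD against GFP FSH, beside 12.5% and 19.1%. Among the 9 genes of mTORC1 and AMPK control, 1 was higher and 1 lower with FOXOA3 against GFP FSH, and 0 and 2 with FOXOA3-mDBD. The shares of all genes were the same as above. The mTORC1 inhibitor Deptor was 2.47-fold lower with FOXOA3 and 2.97-fold lower with FOXOA3-mDBD against GFP FSH. Akt1s1, a second inhibitor of mTORC1, was 2.41-fold higher with FOXOA3 and 2.37-fold lower with FOXOA3-mDBD. Of the 3 measured Bcl2 family genes, whose proteins can bind Becn1, Bcl2l1 was 2.15-fold lower with FOXOA3-mDBD and the rest lay within 2-fold, beside 19.1% of all genes lower.

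**Figure D4:**
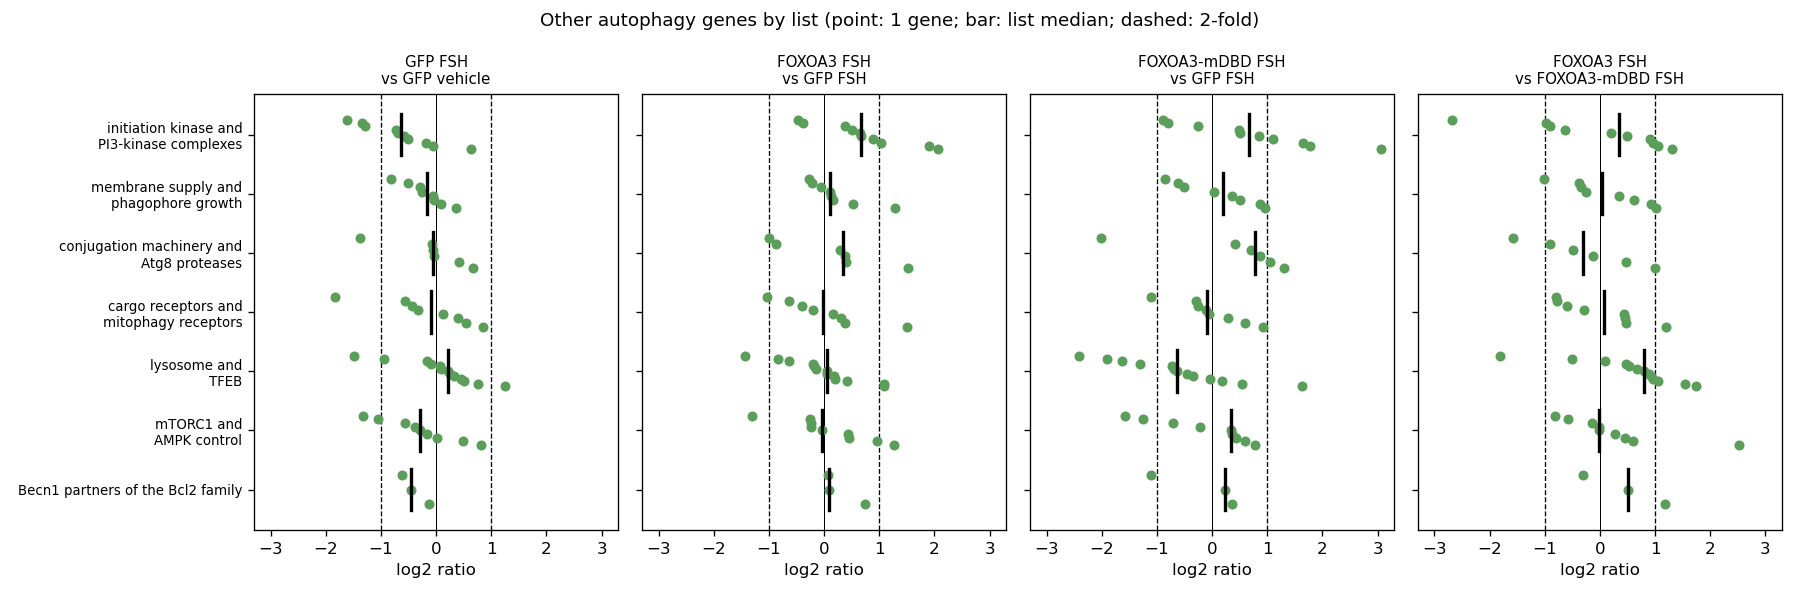
Log2 ratios of the measured genes of 7 autophagy lists (rows; 1 point per gene, bar at the list median) in 4 comparisons (panels), with dashed lines at 2-fold. Initiation genes lie mostly left of 0 with FSH (median -0.64) and right of it against GFP FSH with both FOXOA3 (0.67) and FOXOA3-mDBD (0.68), and lysosome genes lie mostly left with FOXOA3-mDBD against GFP FSH (-0.63). Each of these medians uses the GFP FSH array.

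Map1lc3a had the widest range over the 4 arrays of the 8 members by brightest probe set. The 5 genes with the nearest profile, by Euclidean distance between centred log2 signals on 4 arrays among 8113 genes above the floor on all, were Fbxl4 (distance 0.03), Bbc3 (0.05), Slc25a44 (0.05), Mid1 (0.07) and Mark2 (0.09). Fbxl4 gave 730.9 for GFP vehicle, 332.5 for GFP FSH, 792.6 for FOXOA3 FSH and 325.3 for FOXOA3-mDBD FSH. In all 246 genes lay within a distance of 0.5. Gabarap was the nearest member, at 0.54 and rank 306, followed by Gabarapl1 at 0.83 and rank 1081. Atg5 and Atg12 were the farthest members, at 1.81 and 1.84.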

How the data were processed

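Signals had been made with MAS5, according to the submitters' processing notes, which name no version or settings. The deposited table held intensity values, linear and 1 for each probe set on each array. The 2% trimmed means of the arrays were 500.1 to 500.2, so the arrays had already been brought to one scale and none was added. A difference in total RNA per cell cannot be seen after such scaling, and ratios of dim probe sets are noisy.

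Of 31099 probe sets, 57 were controls, 20832 had 1 gene symbol, 436 several and 9780 none in the platform annotation, and the last 2 kinds were left unnamed. Current identifiers gave the same symbol for 8 of 8 members. Counts of genes used the brightest probe set by mean signal, and every other member probe set is given beside it. Signals under the floor of 100.5 (the median of non-control probe sets over the 4 arrays) were raised to it before log2. A gene was measured in a comparison if its higher signal was above the floor, and was called when its signals were at least 2-fold apart. With 1 array per group no p-values were computed. The calls were tested on simulated data. Python 3.11.15 with pandas 2.3.3 and numpy 2.4.6 was used.

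The members, gene lists and thresholds were chosen with earlier results of these data known. All members are named. From each pathway list, the 2 genes with the largest ratios past 2-fold could be named, and any other is said to have been chosen after its values were seen. The 7 alternatives tried were a floor at the 25th percentile, a pseudocount of 50, quantile normalization, centring, loess, the mean of probe sets and a filter on both signals.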

Additional observations from a re-analysis of the deposited data

How the results depend on the processing

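Of 70 counts of members higher or lower under the 7 alternatives, 65 stayed within 1.5 times the reported count and 5 did not. With FOXOA3 against GFP under FSH, 2 members were higher under loess, Gabarapl1 joining Map1lc3a. Between FOXOA3 FSH and FOXOA3-mDBD FSH, 1 member was higher after centring and 1 with the mean of probe sets, and 0 were lower under quantile normalization and under loess. With the mean of probe sets the 1 lower member was Atg5 in place of Atg12. The mean for Atg5 was -1.02, over probe set ratios of -0.67, -1.99 and -0.40. That for Atg12 was -0.86, over -1.03, -1.66 and 0.11. The cause of the moves under the other alternatives was not tested. Of 280 single ratios of members, 273 kept their side of 2-fold, 7 did not and 0 of those past 2-fold changed sign. The lower floor and the filter on both signals could not change a member ratio or count. The reason is that the brightest probe sets of all 8 members were above the floor on all 4 arrays. The mean of probe sets could not change Map1lc3a or Becn1, which had 1 probe set each. Read by another probe set, 36 of 41 ratios kept their side and 4 did not. Atg12 turned from -1.03 to 0.11 between FOXOA3 FSH and FOXOA3-mDBD FSH. Most of the 41 were within 2-fold by brightest probe set, so the total says little about the 2-fold differences. Among ratios past 2-fold, that of Gabarap fell to 0.49 between FOXOA3 FSH and FOXOA3-mDBD FSH. In that comparison Atg12 gave -1.66 by its remaining probe set. For FOXOA3-mDBD FSH against GFP FSH, the dimmer probe sets of Atg12 gave 1.47 and 0.82.

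Counts over all genes moved by over 1.5 times with the floor at the 25th percentile, which admits dimmer genes: higher genes went from 655 to 1087 for FSH against vehicle, 1105 to 1981 for FOXOA3 FSH and 1221 to 1949 for FOXOA3-mDBD FSH against GFP FSH, and 527 to 1237 for FOXOA3 FSH against GFP vehicle, whose lower genes went from 397 to 609. Loess took the higher genes of FOXOA3 FSH against FOXOA3-mDBD FSH from 1913 to 1034. No paired analysis was possible because each group has 1 array.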
